A study of Mus musculus with 6 samples.

Results

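The 10 genes described here form the core of the NF-kB pathway. They are the subunit genes Nfkb1, Nfkb2, Rela and Relb, the inhibitor genes Nfkbia, Nfkbib, Nfkbie and Nfkbiz, the feedback gene Tnfaip3 and the kinase scaffold gene Ikbkg. They were chosen by name, as genes whose symbol is carried by a probe of the array, out of 21946 gene symbols on 45281 probes. That choice was made with earlier results of these arrays known, so their counts are not independent evidence of a direction. All 10 were found, with 14 probes in all: 7 genes had 1 probe and 3 genes (Nfkbia, Nfkbie and Ikbkg) had several. Each gene is given by its brightest probe over the 6 arrays, with the other probes beside it.

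RNA came from mouse embryonic fibroblasts (MEFs), primary connective tissue cells, of C57BL6 embryos at day 13.5. Cells that stably expressed a short hairpin RNA (shRNA) against Ube2o gave 3 single-colour Illumina BeadChips, and cells with an shRNA against GFP, a jellyfish gene that mice lack, gave 3 more. The labels describe the cultures as independent without saying whether separate embryos gave them. The p-values below therefore reflect array-to-array spread alone, some of which may be technical. Each target had 1 hairpin, so loss of Ube2o and any other effect of that hairpin cannot be told apart.

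UBE2O joins the jobs of a ubiquitin-conjugating enzyme and a ubiquitin ligase. Its transcript was 2.74-fold lower with Ube2o shRNA: the deposited intensity was 668, 851 and 650 with Ube2o shRNA and 1875, 1961 and 2091 with GFP shRNA (limma adjusted p = 3.15e-07). The array signal correlated at 0.993 to 0.996 on the log2 scale between arrays of the same shRNA and at 0.987 to 0.989 between arrays of different shRNAs. A probe counted as above background when its signal passed a cut set from the dim probes of that array. This held for 43.0% to 44.8% of the probes on each array, and the cut lay only just above the array's median signal. All 12 fibroblast markers followed, collagens and Thy1 among them, lay above background on all 6 arrays. With 3 arrays a group, precision is limited by their number. Over all probes, 4.94% passed the test between the groups in either direction.

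NF-kB is a family of paired transcription factors that are held in the cytoplasm of resting cells by IkB proteins. Signals from TNF, IL-1 and Toll-like receptors activate the IKK kinase complex, which marks the IkB proteins for destruction and lets the factors enter the nucleus. Several genes of the pathway are themselves switched on by NF-kB, among them inhibitors that close the loop, and in fibroblasts the pathway is known for its control of secreted cytokines, chemokines and acute-phase proteins. In earlier work on cultured cells UBE2O was described as a brake on the ubiquitination of TRAF6, an adaptor of this pathway.

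Of the 10 genes, 2 fell with Ube2o shRNA, the inhibitor gene Nfkbie and the scaffold gene Ikbkg, and 0 rose. The share of lower genes among all 21946 was 3.74%, and that of higher genes was 2.79% (limma adjusted p under 0.05 over all probes). At an unadjusted p under 0.05, 5 of the 10 were lower and 0 higher, where 9.91% of all genes were lower and 9.42% higher. The log2 change, Ube2o shRNA minus GFP shRNA, was negative for 9 of the 10 and positive for Rela, with a median of -0.22, where the median over all genes was 0.0026. With the arrays scaled to a common median in place of quantile normalization all 10 were negative, with a median of -0.30. That scaling also moved the median over all genes to -0.0188 and the calls over all probes to 567 higher and 1544 lower, against 1019 and 1217 as reported. All 3 Ube2o shRNA arrays lay below all 3 GFP shRNA arrays for 6 of the genes (Nfkb1, Relb, Nfkbie, Nfkbiz, Tnfaip3 and Ikbkg), and 0 genes were separated the other way. That separation held for 12.7% of all genes and for 20% of the 9757 genes whose probe was above background on all arrays, as it was for 9 of the 10. In counts these were 2781 and 1949 genes, and 2724 and 2059 genes were separated the other way. Among those 9757 genes, 7% were lower and 5.83% higher. In bulk RNA, fewer cells that make a transcript and less of it per cell cannot be told apart.

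**Figure D1:**
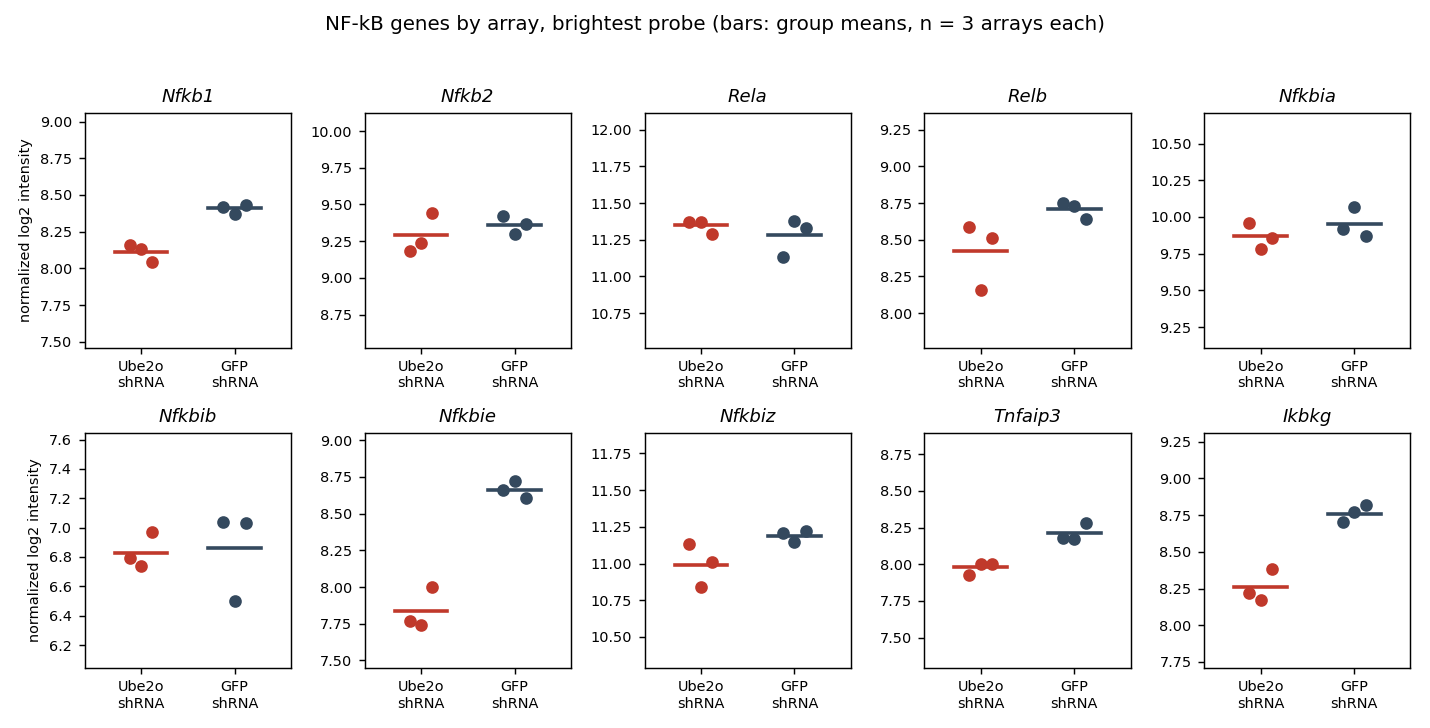
Normalized log2 intensity (vertical axis) of the brightest probe of each of the 10 genes on every array, Ube2o shRNA at left in red and GFP shRNA at right in grey, with bars at the group means (n = 3 arrays each). Every panel spans the same height, so distances compare between panels but levels do not; the groups are parted furthest for Nfkbie, at 7.84 with Ube2o shRNA and 8.66 with GFP shRNA.

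Nfkbie encodes IkB epsilon, one of the IkB proteins that hold NF-kB dimers in the cytoplasm and a product of NF-kB activity itself. Its deposited intensity was 257, 309 and 327 on the Ube2o shRNA arrays and 460, 515 and 513 on the GFP shRNA arrays. The highest array with Ube2o shRNA lay well below the lowest with GFP shRNA. On the normalized log2 scale the gene averaged 7.84 ± 0.145 with Ube2o shRNA and 8.66 ± 0.0547 with GFP shRNA (SD, n = 3 each). The difference of -0.83 (SE 0.116, 95% interval -1.07 to -0.58) is 1.77-fold, with a limma adjusted p of 0.000234. The second probe of Nfkbie was not above background on any array, with intensities of 150, 155 and 159 with Ube2o shRNA and 162, 159 and 171 with GFP shRNA, so it bears no fold. Of the 17 other ways of processing the arrays, each kept Nfkbie lower and past the threshold, with log2 changes between -0.933 and -0.455. The change was closest to 0 when its dim second probe was averaged with the first.

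Nfkbie lies on mouse chromosome 17 at chr17:45555700-45563169 on the plus strand. The 250 bases before its start, from RefSeq on GRCm38.p6 (chr17:45555450-45555699, plus strand), are shown because Nfkbie is the inhibitor gene that fell and its promoter holds a match to a common form of the kappa B site, the DNA element that NF-kB binds. The motif searched was GGG, any 3 bases and then TTCC, on both strands, chosen with these promoters in view, and capitals mark the match, which begins at position -106 (position -1 being the base before the start):
Nfkbie: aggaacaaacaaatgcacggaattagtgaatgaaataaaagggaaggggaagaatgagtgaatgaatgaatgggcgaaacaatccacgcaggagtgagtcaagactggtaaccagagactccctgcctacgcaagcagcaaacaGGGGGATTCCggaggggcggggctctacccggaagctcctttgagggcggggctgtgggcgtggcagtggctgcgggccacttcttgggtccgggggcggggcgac

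RefSeq windows were matched for 7 of the 10 genes, and 4 of them (Nfkb2, Nfkbia, Nfkbie and Tnfaip3) hold the motif in a window, against 5.31% of 27025 genes. Of the 4, Nfkbie alone passed the test. The stretches of the other 3 follow, each the motif with up to 20 bases on either side and none past the start, 5′ to 3′ along the gene, with the motif on either strand in capitals. They are shown so that the element can be compared between the inhibitor that fell and the genes that did not pass. Nfkb2 is shown at one of its annotated starts, with 2 matches (chr19:46304679-46304736, plus strand). Nfkbia is at chr12:55492648-55492696 and Tnfaip3 at chr10:19015411-19015442, both on the minus strand.
Nfkbia: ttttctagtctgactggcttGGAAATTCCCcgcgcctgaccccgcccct
Nfkb2: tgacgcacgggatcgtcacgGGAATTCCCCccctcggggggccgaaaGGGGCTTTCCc
Tnfaip3: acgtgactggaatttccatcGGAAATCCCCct
A match of letters is a description of these windows and not a site shown to be bound. The windows of Rela, Nfkbib and Ikbkg hold none of these letters in this order.

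The other inhibitor genes did not pass the test. Nfkbia encodes IkB alpha, the best known inhibitor and the fast feedback gene of the pathway, and its brighter probe had intensities of 908, 1040 and 967 with Ube2o shRNA and 1007, 1187 and 1129 with GFP shRNA. These groups overlap, with a log2 change of -0.085 (95% interval -0.33 to 0.16, limma adjusted p = 0.796). Its second probe, which was nearly as bright, gave 854, 1158 and 888 with Ube2o shRNA and 1035, 976 and 1028 with GFP shRNA, a log2 change of 0.03 (95% interval -0.22 to 0.28). Both intervals leave out a change as large as that of Nfkbie. Nfkbia was therefore measured by a pair of probes that both lay above background on all 6 arrays and both showed overlapping groups.

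Nfkbiz encodes an atypical, nuclear IkB protein that helps NF-kB switch on a subset of its targets, Lcn2 and Il6 among them. Its intensity was 1957, 2079 and 2047 with Ube2o shRNA and 2369, 2432 and 2734 with GFP shRNA. The groups do not overlap, but the log2 change of -0.20 (95% interval -0.44 to 0.04) did not pass (limma adjusted p = 0.43). Nfkbib, which encodes IkB beta, was the 1 gene of the 10 not above background on every array, being so on all 3 arrays with Ube2o shRNA and on 2 of 3 with GFP shRNA. Its intensity was 170, 191 and 202 with Ube2o shRNA and 209, 165 and 220 with GFP shRNA, and the log2 change of -0.02 (95% interval -0.32 to 0.28, limma adjusted p = 0.968) changed sign under 4 of 16 other settings.

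Ikbkg encodes NEMO, the regulatory scaffold of the IKK complex that reads ubiquitin chains, and is X-linked (chrX:74393233-74456792). The intensity of its brightest probe was 323, 391 and 402 with Ube2o shRNA and 473, 531 and 583 with GFP shRNA, so the groups were separated. It averaged 8.26 ± 0.11 with Ube2o shRNA and 8.76 ± 0.0591 with GFP shRNA on the normalized log2 scale (SD, n = 3 each). The log2 change was -0.50 (SE 0.113, 95% interval -0.74 to -0.27), 1.42-fold, with a limma adjusted p of 0.0125. A second probe above background on all arrays had 222, 273 and 267 with Ube2o shRNA and 314, 313 and 313 with GFP shRNA. It was also lower on every Ube2o shRNA array, with a log2 change of -0.32 that did not pass (limma adjusted p = 0.133). The third probe was not above background on any array.

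The call of Ikbkg was lost in 6 of 17 other settings, with adjusted p up to 0.157. Without Ube2o shRNA replicate 1, Ube2o shRNA replicate 2 or GFP shRNA replicate 3 the limma adjusted p was 0.0551, 0.0563 and 0.0575. The median log2 change of the 283 X-linked genes above background on all arrays was -0.18, and Ikbkg had a change of -0.32 beyond that median, which did not pass (limma adjusted p = 0.131). Xist, the RNA of the inactive X chromosome, exceeded background on 0 of 3 arrays with Ube2o shRNA and on 2 of 3 with GFP shRNA. The Y-linked gene Uty did so on 2 of 3 with Ube2o shRNA and on 3 of 3 with GFP shRNA, while the Y-linked Eif2s3y and Kdm5d were above background on 0 arrays of either group. Neither Xist nor Uty passed the test between the groups, with limma adjusted p of 0.821 for Xist and 0.842 for Uty.

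Tnfaip3 encodes a ubiquitin-editing enzyme that shuts off signalling to IKK and is a classic NF-kB feedback gene. Its intensity was 279, 354 and 327 with Ube2o shRNA and 355, 378 and 422 with GFP shRNA. The groups do not overlap, though 354 and 355 lie side by side. The log2 change of -0.23 (95% interval -0.46 to 0.00) did not pass (limma adjusted p = 0.301), nor did it in any of the 17 other settings, where it lay between -0.31 and -0.18.

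None of the 4 subunit genes among the 10 passed the test. Rela encodes the main transactivating subunit, and its intensity was 2310, 2976 and 2472 with Ube2o shRNA and 2239, 2794 and 2941 with GFP shRNA. The groups overlap, with a log2 change of 0.06 (95% interval -0.18 to 0.31, limma adjusted p = 0.857) that took the opposite sign with median scaling (-0.02). Nfkb2, whose precursor is processed in the non-canonical branch of the pathway, had 558, 742 and 746 with Ube2o shRNA and 734, 738 and 813 with GFP shRNA. Its groups overlap too, with a log2 change of -0.075 (95% interval -0.32 to 0.17, limma adjusted p = 0.828).

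Nfkb1 and Relb came closer to the threshold. Nfkb1 encodes the precursor of the DNA-binding partner of RelA, and had 311, 381 and 333 with Ube2o shRNA and 403, 423 and 458 with GFP shRNA. Every Ube2o shRNA array was below every GFP shRNA array, with a log2 change of -0.30 (95% interval -0.53 to -0.07, limma adjusted p = 0.152). Its only probe is annotated to a cDNA clone and not to a RefSeq transcript. Nfkb1 did pass in 4 of 17 other settings, always lower: without background correction (adjusted p = 0.0309), in the authors' series matrix values (adjusted p = 0.0347) and with probes restricted to those above background on at least 3 arrays (adjusted p = 0.0453) or on all 6 (adjusted p = 0.031). In those 4 settings 3 of the genes were lower, against 6.08%, 6.03%, 10.6% and 12.2% of all genes tested there. With the replicate number as a block the lower genes were 2 of the 10, against 3.65% of all genes, and with the smaller offset of 16 or the mean of a gene's probes 1 of the 10, against 1.28% and 2.85%. Leaving out Ube2o shRNA replicate 1, 2 or 3 gave 1, 1 and 2 of the 10, against 2.74%, 2.92% and 2.79%, and leaving out GFP shRNA replicate 1, 2 or 3 gave 2, 2 and 1, against 2.59%, 2.76% and 2.8%. Relb, the transactivating subunit of the non-canonical branch, had 397, 387 and 433 with Ube2o shRNA and 487, 519 and 524 with GFP shRNA. Its groups do not overlap either, and the log2 change of -0.29 (95% interval -0.56 to -0.02) did not pass (limma adjusted p = 0.258) or in any other setting. Rel, the fifth subunit gene, is not among the 10 and is named after its values were seen, because it ran the other way. Its intensity was 179, 194 and 197 with Ube2o shRNA, above background on all 3 arrays, and 167, 157 and 182 with GFP shRNA, above background on 1 of 3. On the normalized scale every Ube2o shRNA array was above every GFP shRNA array, with a log2 change of 0.40 (SE 0.115) that just missed the threshold (limma adjusted p = 0.0531). It passed as higher in 7 of 16 other settings, among them relative to its chromosome (0.48, adjusted p = 0.0203), with adjusted p between 0.017 and 0.201 over the 16.

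**Figure D2:**
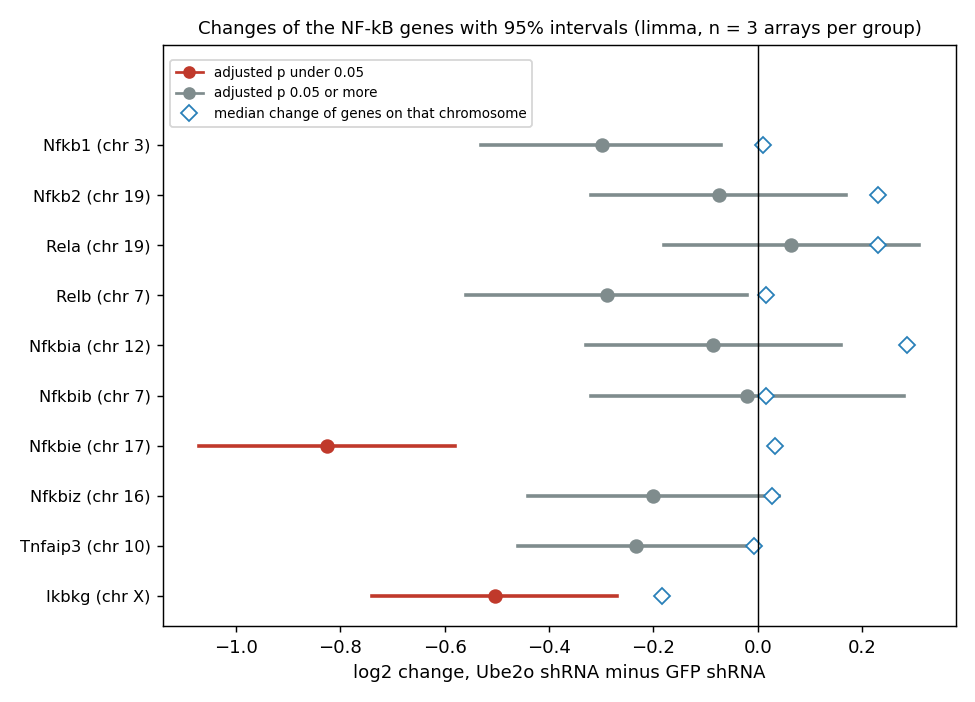
The log2 change (Ube2o shRNA minus GFP shRNA, horizontal axis) of each gene as a circle with its 95% interval, red where the limma adjusted p was under 0.05, and the median change of genes above background on the same chromosome as an open diamond. Nfkbie (-0.83) and Ikbkg (-0.50) are the red circles; the diamonds of chromosomes 12 and 19 lie to the right of 0, at 0.29 and 0.23, and that of the X chromosome to the left, at -0.18.

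Genes of some chromosomes were shifted as a group in the Ube2o shRNA arrays, and 4 of the 10 NF-kB genes lie on such chromosomes. The median log2 change was 0.29 over 297 genes of chromosome 12, which carries Nfkbia, and 0.23 over 340 genes of chromosome 19, which carries Rela and Nfkb2. Relative to that median, Nfkbia had a change of -0.37, Nfkb2 of -0.305 and Rela of -0.17, none of which passed (limma adjusted p of 0.0772, 0.162 and 0.506). On this scale all 10 genes were negative, with a median of -0.30, and Nfkbie was the 1 gene past the threshold (change of -0.86, adjusted p = 0.000149), where 3.84% of all genes were lower. What shifted these chromosomes was not tested.

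**Figure D3:**
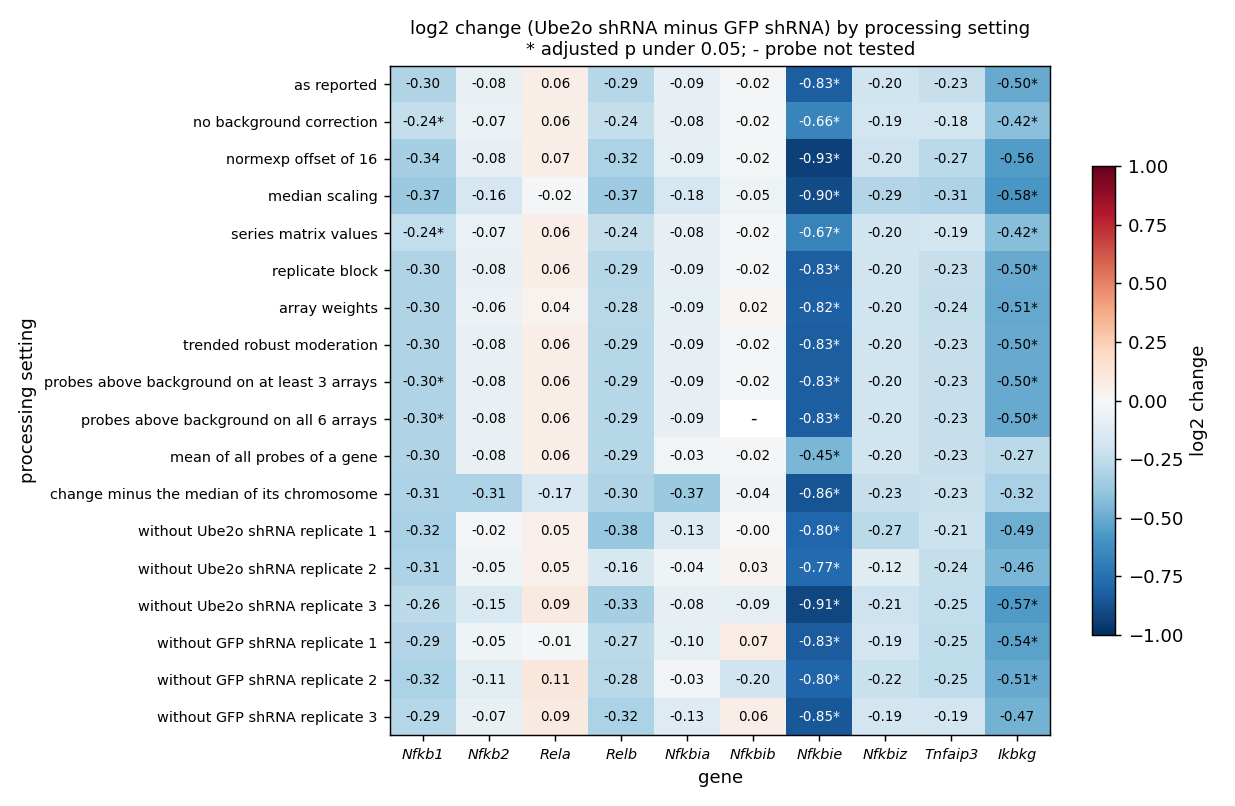
The log2 change of each gene (columns) under the processing reported here (top line of cells) and the 17 other settings, with colour and printed value giving the change, Ube2o shRNA minus GFP shRNA, and a star where the adjusted p was under 0.05. Nfkbie carries a star in every setting, Ikbkg in all but 6 of the 17, and Nfkb1 in 4 of them.

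Of 42 other genes of the NF-kB machinery (kinases, adaptors, ubiquitin enzymes and regulators), 37 had a probe named here, of which 5 fell and 0 rose. This is 13.5% of the list, where 3.74% of all genes were lower, and 7% of those above background on all arrays. The list had a median log2 change of -0.06. At an unadjusted p under 0.05, 12 of the 37 were lower and 4 higher (all genes: 9.91% and 9.42%). The largest fall was that of Tnip1, which encodes a ubiquitin-binding partner of the Tnfaip3 protein and is another NF-kB feedback inhibitor. It had intensities of 1021, 1126 and 1027 with Ube2o shRNA and 2125, 2175 and 2016 with GFP shRNA, a log2 change of -0.93 (SE 0.121, limma adjusted p = 9.57e-05), 1.91-fold. All 3 Ube2o shRNA arrays lay far below the GFP shRNA arrays, and Tnip1 was past the threshold in all 17 other settings. Its 4 probes differed: another fell too (-0.72, adjusted p = 0.000943), while 2 dim ones had overlapping groups (-0.13 and -0.20), the first of them above background on all arrays. With all averaged the change was -0.496. The other 4 were Traf2, an adaptor of TNF receptors (-0.54), Birc3, a ubiquitin ligase that joins it there (-0.535), Cyld, a deubiquitinase that restrains IKK (-0.48), and the X-linked Tab3, a ubiquitin-binding partner of the kinase TAK1 (-0.48). Tab3 did not pass relative to the median of its chromosome (-0.29, adjusted p = 0.194) or with its probes averaged (-0.19, adjusted p = 0.437), its second probe not being above background on any array. With a background offset of 16 in place of 50, Tnip1 alone of the 5 passed. Over the 17 other settings the call was lost in 2 for Traf2, 4 for Birc3, 5 for Cyld and 8 for Tab3. Traf6, named after its values were seen because of its link to UBE2O, had a log2 change of 0.12 (limma adjusted p = 0.708).

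Tnip1 holds the motif too, as a symmetrical stretch in which matches on both strands overlap. It is shown with Tlr2, Il6 and Cxcl1 (RefSeq, GRCm38.p6), which had the largest changes of the genes outside the 10 that fell and hold it. Cyld and Ccl20, which also fell and hold it, are not printed. Saa3, Lcn2 and C3 fell by more (log2 changes of -4.72, -4.67 and -3.44), and their windows do not hold the motif. Cxcl2 and Cxcl10, which did not pass, do hold it. Tnip1 is at chr11:54962967-54963018 and Tlr2 at chr3:83841752-83841801, both on the minus strand, and Il6 is at chr5:30013050-30013099 and Cxcl1 at chr5:90891136-90891204, both on the plus strand.
Tnip1: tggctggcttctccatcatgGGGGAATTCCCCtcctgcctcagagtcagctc
Tlr2: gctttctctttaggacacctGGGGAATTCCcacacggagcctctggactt
Il6: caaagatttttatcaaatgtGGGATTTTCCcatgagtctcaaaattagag
Cxcl1: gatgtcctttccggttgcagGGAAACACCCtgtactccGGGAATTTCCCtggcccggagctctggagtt
Among 28 genes of the target list with a RefSeq window, 7 hold the motif: 3 of the 9 that fell and 4 of the 18 that were measured and did not pass. In the machinery list it was in 2 of 5 that fell and 5 of 24 that did not pass, and among receptors and adaptors in 1 of 2 and 2 of 11.

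Upstream of IKK, 16 of 18 receptor and adaptor genes had a probe named here, of which 2 fell and 1 rose. Of all genes 3.74% were lower and 2.79% higher, and of those above background on all arrays 7% and 5.83%. Tlr2, the receptor for bacterial lipopeptides, had 920, 1183 and 1092 with Ube2o shRNA and 2311, 2898 and 3135 with GFP shRNA, a log2 change of -1.34 (SE 0.117, limma adjusted p = 8.98e-07). Irak1, an X-linked kinase that acts below Toll-like and IL-1 receptors, had a log2 change of -0.715 (SE 0.117, limma adjusted p = 0.000993) and passed relative to its chromosome too (-0.532, adjusted p = 0.0124). With its probes averaged, and no chromosome median taken off, it passed as well (-0.475, adjusted p = 0.015). Its other probes were above background on all arrays and lower on every Ube2o shRNA array. They had log2 changes of -0.399 and -0.31 and did not pass (limma adjusted p of 0.115 and 0.152). Relative to the chromosome their changes were -0.216 and -0.127 (limma adjusted p of 0.451 and 0.631). Tnfrsf12a, the receptor of the cytokine TWEAK, rose, with 2262, 2880 and 2729 with Ube2o shRNA and 1682, 1637 and 1717 with GFP shRNA (log2 change 0.78, limma adjusted p = 0.000329). The remaining 13 lay between -0.34 and 0.18. Of 9 ligand genes, 5 were not above background on any array, Tnf and Il1a among them. Il33, an alarmin of the IL-1 family, fell by 0.64 on the log2 scale (limma adjusted p = 0.00253), from the sole ligand probe above background on all arrays.

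Of 36 measured genes that NF-kB is known to switch on, 12 fell and 0 rose. That is 33.3% of a list which was drawn up with earlier results of these arrays known and so is not independent evidence of its direction. Of all genes 3.74% were lower, and 7% of those above background on all arrays. At an unadjusted p under 0.05, 16 of the 36 were lower and 1 higher (all genes: 9.91% and 9.42%). The median log2 change was -0.24. The acute-phase genes Saa3 and Lcn2 and the complement gene C3 had log2 changes of -4.72, -4.67 and -3.44. Those of the cytokine and chemokine genes Il6, Ccl2, Ccl7 and Cxcl1 were -1.631, -1.546, -1.515 and -1.49. The matrix protease gene Mmp9 (-0.87), the death receptor gene Fas (-0.69), the stress gene Gadd45b (-0.49) and the transcription factor gene Irf1 (-0.45) also fell. The calls of Irf1 and Gadd45b were lost in 8 and 4 of the 17 other settings, and the change of Irf1 was -0.275 with its probes averaged. The list's count lower was 9 with the offset of 16, 10 with probes averaged and 9 to 11 when 1 array was left out. Those settings had 1.28%, 2.85% and 2.59% to 2.92% of all genes lower. Ccl20, not above background on any Ube2o shRNA array, was at least 1.09-fold lower (limma adjusted p = 0.0266), a call lost in 7 other settings. The 24 that did not pass ran from -0.51 for Ccl5 to 0.40 for Mmp13. Among them were Icam1, Sod2 and Ptgs2, textbook NF-kB targets, with log2 changes of -0.168, -0.215 and 0.09, named after their values were seen.

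**Figure D4:**
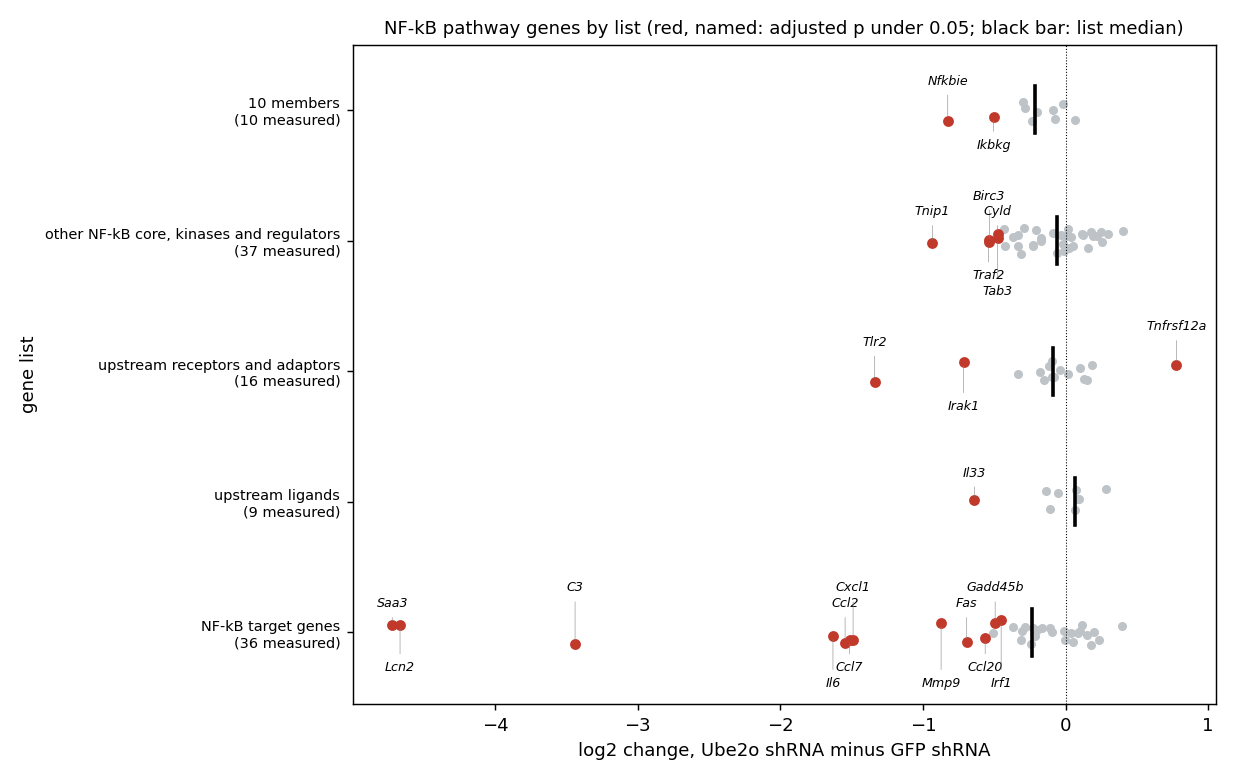
The log2 change (Ube2o shRNA minus GFP shRNA, horizontal axis) of every measured gene in the 10 and in the 4 lists of other pathway genes, with genes past the threshold in red and named, the rest in grey and list medians as black bars. The 10 NF-kB genes lie between -0.83 and 0.06, while the target list reaches -4.72.

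Of 12 macrophage and leukocyte markers, 3 fell as well (4 were lower and 0 higher at an unadjusted p under 0.05). They were Cd74 (log2 change -2.17), Aif1 (-0.735) and Cd14 (-0.57), of which Cd14 is itself an innate immune receptor gene. Cd74 kept its call in all 17 other settings. Aif1 lost its call with its probes averaged (-0.373, limma adjusted p = 0.0509) and with the offset of 16, and Cd14 with the offset of 16. Of all genes 3.74% were lower, and 9.91% at the unadjusted p. The summed deposited intensity of the 12 ran from 2297 to 2702 over the Ube2o shRNA arrays and from 3310 to 3631 over the GFP shRNA arrays. That sum is not normalized and includes probes at background. Cd74 by itself had 198, 231 and 218 with Ube2o shRNA and 756, 698 and 798 with GFP shRNA. The sum therefore does not describe the list as a whole. Lyz2 was also above background on all 6 arrays and Csf1r on 2 of 3 in each group, and neither passed (log2 changes -0.19 and 0.03). The other 7, Ptprc, Adgre1, Cd68, Itgam, Fcer1g, Tyrobp and Laptm5, were not above background on any array of either group. Whether the source of these transcripts bears on the NF-kB genes was not tested. Of 6 endothelial and 6 epithelial markers, 0 passed in limma (0 and 1 at an unadjusted p under 0.05). Of the 12 fibroblast markers, the receptor gene Pdgfra fell (log2 change -0.76) and 11 did not pass (3 higher and 2 lower at an unadjusted p under 0.05). At that unadjusted p 9.42% of all genes were higher and 9.91% lower. By the limma adjusted p, 7% of genes above background on all arrays were lower and 5.83% higher. Pdgfra did not pass with its probes averaged (-0.33, adjusted p = 0.0745).

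Over the 6 arrays, the genes whose centred normalized log2 values came closest to those of Nfkbie were Cpq, Gnptab and Gadd45a, with root mean square distances of 0.0647, 0.0664 and 0.0701, among 8686 genes, those above background on all arrays less predicted models and clones. Their log2 changes were -0.75, -0.92 and -0.90. For Rela, the gene with a positive change, they were Frrs1, Srsf3 and Bmper, at distances of 0.0219, 0.0219 and 0.0244. A small distance here says only that the values on 6 arrays of 2 groups ran alike.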

How the data were processed

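Per the labels, biotinylated cRNA was made with the Illumina TotalPrep kit. The authors deposited probe intensity on a linear scale, which was used here, and a series matrix of log2 values, found to be quantile normalized (sorted values equal on all arrays within 0.001, median 7.386 on each) and in the same probe order as the intensity (Spearman correlation 0.999999). The scanner software and any background step before deposit are unknown here. A characteristics label names an siRNA for the Ube2o arrays; the titles, which say shRNA, were followed.

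Intensity was background corrected (normexp, saddle-point, offset of 50), quantile normalized and taken to log2. The offset compresses changes of dim genes. The test was the two-sided moderated test of limma 3.58.1 (R 4.3.3), fitted on all 45281 probes; p-values were adjusted by Benjamini and Hochberg's method, with 0.05 as threshold. No detection p-values were used: background was the mode of the log2 signal of an array and the spread below it, with p under 0.05 as above. A gene not above background in a group is given as a bound. Probes took platform symbols updated through RefSeq (GRCm38.p6): 35784 had 1 symbol, 0 several and 9497 none. Genes with no probe named here were not analysed. Chromosome medians used genes above background on all 6 arrays.

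The members, lists, motif and tests were chosen with earlier results of these data known. Named were the 10 genes, Ube2o, and of each other list the members past the threshold, up to 12 by smallest p. Replicate numbers gave no sign of pairing: deviations of arrays of the same number correlated at 0.0258, -0.118 and 0.0792. Those of unlike numbers ran from -0.137 to 0.103. With 3 arrays a group this cannot exclude a pairing, which the labels do not describe. The procedure was also run on simulated data, where every change put in was larger than those of Nfkbie and Ikbkg. That run therefore does not bear on changes of their size.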

Additional observations from a re-analysis of the deposited data

How the results depend on the processing

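Nfkbie stayed lower and past the threshold in all 17 alternatives. The count lower was 1 with the offset of 16, with all probes of a gene averaged and relative to the chromosome, and 1 to 2 when 1 array was left out; in each, Ikbkg was the gene lost. Rela, never past the threshold, changed sign with median scaling (-0.017), relative to its chromosome (-0.166) and without GFP shRNA replicate 1 (-0.0104, the range over arrays left out being -0.0104 to 0.115). Nfkbib did so with array weights (0.017) and with 3 of the 6 arrays left out in turn (range -0.197 to 0.0717). With the replicate number as a block (replicate block) 2 of the 10 genes, 5 of the other machinery and 12 targets were lower. Of all genes 3.65% were lower with that block. Over all probes 966 were higher and 1173 lower with it, and it changed no call of the 10 genes.

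Over all probes, 1019 were higher and 1217 lower. The counts were 2011 and 1930 in the series matrix values, 2024 and 1942 without background correction, 179 and 405 with the offset of 16, and 609 and 760 with probes averaged. The higher count was 567 with median scaling (1544 lower), 1650 with trended moderation, and 1729 or 1931 with the filters on 3 or 6 arrays. Leaving out 1 array gave 615 to 731 higher and 830 to 958 lower. Of the other machinery, 9 were lower and 3 higher both in the series matrix values and when the background was left uncorrected. Of all genes 6.03% and 6.08% were lower there. The machinery count lower was 1 with the offset of 16, 9 and 10 with the filters, and 2 to 4 when 1 array was left out. Those settings had 1.28%, 10.6% and 12.2%, and 2.59% to 2.92% of all genes tested lower. In the machinery list 2 rose with trended moderation, and 1 with array weights, with either filter, with probes averaged and relative to the chromosome. Of the targets, 1 rose in the series matrix values, with either filter and with probes averaged. Shares of higher genes over all genes are not given for these settings, so the counts that rose stand without one. Dim probes limit Nfkbib, Ccl20, Icam1 and some other targets, and most ligands. The causes of these differences were not tested.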
